A study of Rattus norvegicus with 24 samples.

Results

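ENSRNOG00000001859, ENSRNOG00000015157 and ENSRNOG00000020864, 3 genes of the rat INS1 line given here by their Ensembl IDs, were followed over all 8 groups of a study of the stress sensor IRE1α. They are 3 of 26689 IDs counted and were selected on their measured counts, because each stood about 2-fold higher after 4 h with the compound PAIR1 than with vehicle in cells induced to express IRE1α. Of the 26689, 0 could be matched to the RefSeq gene table that pairs IDs with symbols, so no symbol, function or sequence is given for the 3 genes, and the identity of the cells was not read from marker genes. INS1 was derived from a rat insulinoma and stands in for the insulin-secreting beta cell, and the cells used here carry a doxycycline-inducible mouse IRE1α (Ern1) transgene in every group. Uninduced cells received drug vehicle only, induced cells received doxycycline and vehicle, and the remaining cells received doxycycline with PAIR1 or with KIRA9. RNA was collected 4 h and 24 h after induction, and each of the 8 groups has 3 libraries. The labels give no compound dose, do not say whether the line is a single clone, and contain no uninduced cells treated with a compound. What a compound does through induced IRE1α and what it does by other routes are therefore not separated.

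IRE1α sits in the membrane of the endoplasmic reticulum and joins a kinase domain to an RNase domain. When unfolded protein accumulates, its molecules pair, phosphorylate each other and switch on the RNase, which splices Xbp1 mRNA into the form that encodes a transcription factor of secretory capacity. Under strong or lasting activation the RNase also cleaves many other mRNAs at the endoplasmic reticulum, a process known as regulated IRE1α-dependent decay, and beta cells can then lose their differentiated state and die. Both compounds act on the kinase: the PAIR class is named by the series as partial antagonists that compete with ATP, and KIRA stands for kinase-inhibiting RNase attenuator.

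Library totals ran from 12.6 to 23.8 M counts, and levels are given as counts per 1 M counts (CPM) after TMM scaling, mean ± SD over 3 libraries. Of the 26689 IDs, 13760 passed the filter on low counts and were tested, all 3 genes among them. A gene or ID is said to be called where its adjusted p was under 0.05. Nothing in the labels says that replicates came from separate cultures, so a p-value reflects no more than how these libraries vary, which may be technical variation. In 6 libraries (PAIR1 24 h replicate 1, induced 24 h replicates 1 and 2, induced 4 h replicate 3, uninduced 24 h replicate 2 and uninduced 4 h replicate 2) a block of 32 other IDs took 0.605 to 0.680% of counts, against 0.0411 to 0.0563% in the other 18. None of the 3 genes belongs to that block (0 of 3), and results are given with and without these libraries. For the 6 induced vehicle libraries the time characteristic contradicts the title and the column name, and the time in the title was taken. In bulk RNA, a lower level cannot be told apart from fewer cells that express a gene.

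ENSRNOG00000001859 was the one of the 3 called lower with induction of IRE1α at 24 h, and called higher than induced cells with each compound at that time. At 4 h its level was 94.8, 94.2 and 96.7 CPM in the uninduced libraries and 96.9, 87.3 and 84.6 CPM in the induced libraries. With PAIR1 it was 188.8, 200.4 and 201.4 CPM, and with KIRA9 it was 360.1, 340.9 and 359.5 CPM. Both vehicle groups overlapped, all PAIR1 libraries lay above them, and all KIRA9 libraries lay above all PAIR1 libraries. Over all tested IDs, PAIR1 libraries all lay above induced libraries at 4 h in 10.4%, a contrast that chose the genes, and below KIRA9 libraries in 9.08%. At 24 h the uninduced libraries held 52.9, 57.3 and 59.1 CPM and the induced libraries held 12.8, 15.5 and 13.8 CPM. The PAIR1 libraries then held 52.9, 49.8 and 57.5 CPM, and the KIRA9 libraries held 105.9, 103.8 and 111.1 CPM. The induced libraries were the lowest, the PAIR1 libraries overlapped the uninduced ones, and the KIRA9 libraries lay above every other library of that time. Induced libraries all lay below uninduced ones at 24 h in 32.7% of IDs, and KIRA9 libraries all lay above uninduced ones in 18%.

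ENSRNOG00000015157 was a low-count gene that was high with both compounds at 4 h and near the vehicle level at 24 h. Its counts ran from 29 in an uninduced library to 192 in a KIRA9 library, both at 4 h. At 4 h it was at 1.73, 1.95 and 2.26 CPM in uninduced libraries, 3.14, 3.23 and 3.47 CPM in induced libraries, 6.43, 8.89 and 6.90 CPM with PAIR1 and 10.7, 10.7 and 11.5 CPM with KIRA9. No 2 of these 4 groups overlapped, and they stood in the order uninduced, induced, PAIR1, KIRA9 from low to high. Part of this order is built in, since PAIR1 over induced cells chose the gene. Among tested IDs, PAIR1 libraries all lay above induced ones in 10.4% and below KIRA9 ones in 9.08%. It was the one gene of the 3 whose induced libraries all lay above the uninduced ones at 4 h, by 1.66-fold in the fitted means; 5.6% of all tested IDs showed such a gap. At 24 h it was at 3.68, 3.77 and 3.20 CPM in uninduced, 3.41, 2.87 and 3.80 CPM in induced, 3.64, 2.56 and 3.32 CPM in PAIR1 and 3.52, 3.48 and 4.71 CPM in KIRA9 libraries. The induced libraries overlapped those of every other treatment at 24 h.

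ENSRNOG00000020864 was likewise high with the compounds at 4 h and no longer so at 24 h. At 4 h the uninduced libraries held 4.18, 5.03 and 4.79 CPM and the induced libraries held 5.10, 4.58 and 4.30 CPM, so both vehicle groups overlapped. The PAIR1 libraries held 9.42, 9.23 and 10.7 CPM, and the KIRA9 libraries held 24.2, 21.3 and 22.5 CPM. All KIRA9 libraries stood above all PAIR1 libraries, which stood above all vehicle libraries. Such a gap was found in 9.08% of tested IDs for KIRA9 above PAIR1. For PAIR1 above induced cells, the contrast that chose the gene, it was found in 10.4%. At 24 h the values were 3.76, 3.77 and 3.20 CPM in uninduced, 3.55, 2.94 and 4.29 CPM in induced, 2.14, 3.02 and 3.21 CPM in PAIR1 and 3.80, 3.28 and 3.51 CPM in KIRA9 libraries. The PAIR1 libraries were the low ones and lay below the 3 KIRA9 libraries, as in 18% of tested IDs, though they overlapped the uninduced and the induced libraries.

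**Figure D1:**
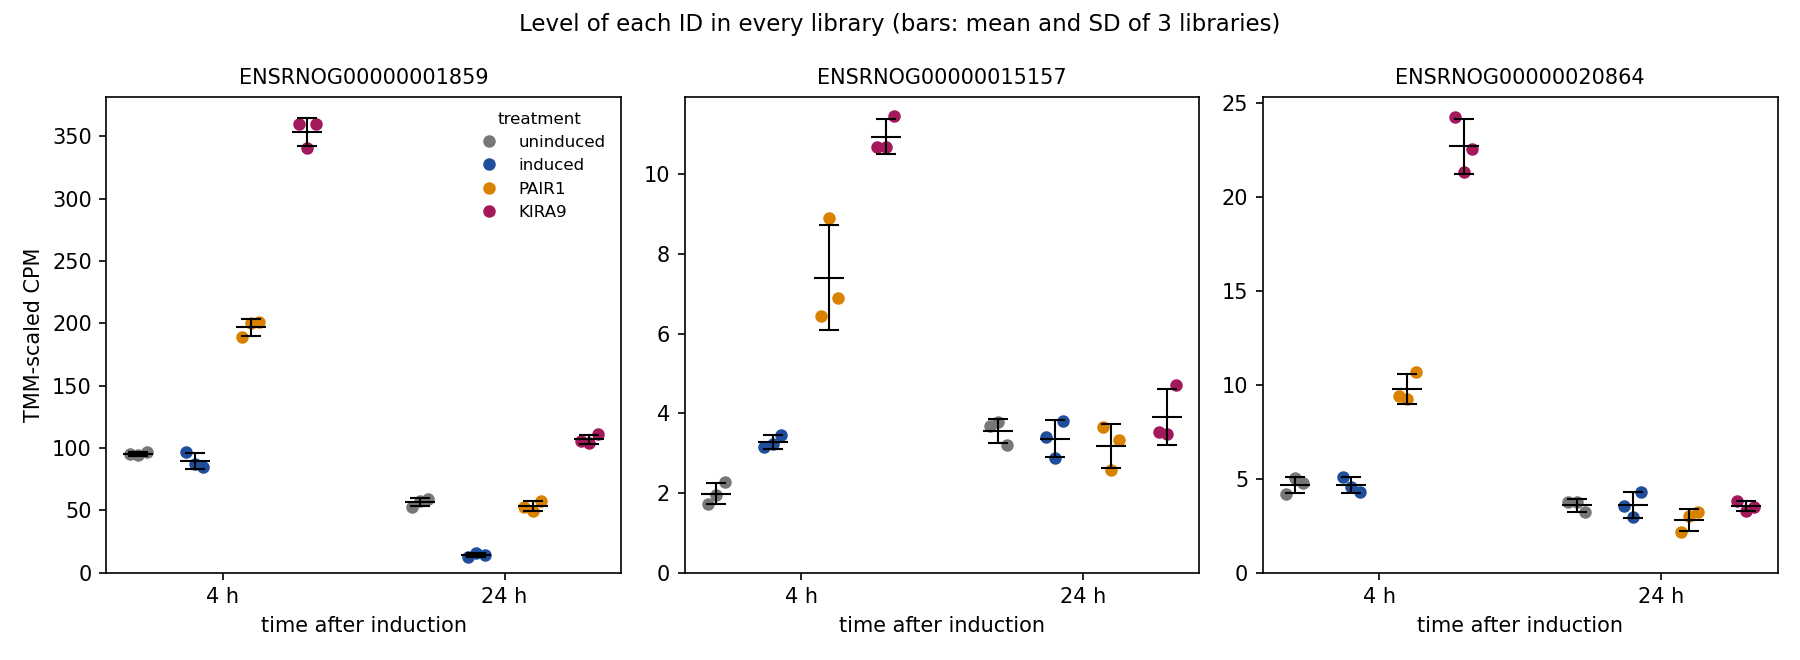
Level of each gene in every library, in TMM-scaled CPM on a linear axis from 0, by treatment at 4 h and 24 h after induction; points are libraries and bars the mean and SD of 3. The KIRA9 libraries at 4 h are the highest in each panel, and at 24 h the group means spread from 14.1 CPM with induction to 107 CPM with KIRA9 in ENSRNOG00000001859 but from 3.18 to 3.90 CPM in ENSRNOG00000015157 and from 2.79 to 3.59 CPM in ENSRNOG00000020864.

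The contrast that chose the genes was PAIR1 against induced vehicle cells at 4 h, and it is given as a description with no test. Calls in it serve below only to name IDs that are set beside the 3 genes. ENSRNOG00000001859 was higher by 1.13 on the log2 scale (2.20-fold), ENSRNOG00000015157 by 1.17 (2.26-fold) and ENSRNOG00000020864 by 1.07 (2.09-fold). Over all tested IDs, 92 (0.669%) were at least 2-fold higher in this contrast. Of these IDs, 67 stood above the highest of the 3 genes. The nearest ID below the lowest of the 3, at 1.07 on the log2 scale, had a log2 difference of 1.06, so the set has no gap at its edge.

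The other contrasts at 4 h that use the PAIR1 or the induced libraries share the values behind the choice and are likewise not tested. Over induced cells the KIRA9 level was 3.94-fold higher for ENSRNOG00000001859, 3.34-fold for ENSRNOG00000015157 and 4.85-fold for ENSRNOG00000020864. These contrasts share the induced libraries with the PAIR1 contrast. Against PAIR1, the KIRA9 level was 1.80-fold, 1.48-fold and 2.32-fold higher in the same order of genes. In these fitted ratios the step from PAIR1 to KIRA9 was the smallest in ENSRNOG00000015157 and the largest in ENSRNOG00000020864. Whether the step differed between the genes was not tested. Over uninduced cells the PAIR1 level was 2.07-fold higher for ENSRNOG00000001859, 3.75-fold for ENSRNOG00000015157 and 2.10-fold for ENSRNOG00000020864. Induction alone gave log2 differences at 4 h of -0.09 for ENSRNOG00000001859 and 0.01 for ENSRNOG00000020864, and of 0.73 for ENSRNOG00000015157.

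KIRA9 against uninduced cells at 4 h shares no library with the contrast that chose the genes and could be tested. A KIRA9 rise at that time was, however, already known for at least 1 of the 3. The 3 were also grouped beforehand as raised early by the compounds, so the p-values are not independent support for this rise. All 3 genes rose, where 5.44% of the tested IDs were called higher. In the contrast that chose the genes, 12 IDs were called and at least 2-fold higher. The 3 genes are among these 12 through the choice itself, so their place there is not a result. Of these 12, 5 (41.7%) were called higher with KIRA9 here, and the 3 genes themselves make up most of that share. ENSRNOG00000015157 went from 1.98 ± 0.27 to 10.9 ± 0.45 CPM (SD, n = 3), a log2 difference of 2.47 ± 0.17 (SE) by edgeR's quasi-likelihood fit (adjusted p = 4.3e-10). ENSRNOG00000020864 went from 4.67 ± 0.44 to 22.7 ± 1.5 CPM, with a log2 difference of 2.28 ± 0.14 (adjusted p = 4.6e-11). For ENSRNOG00000001859 the levels were 95.2 ± 1.3 and 353.5 ± 10.9 CPM and the log2 difference was 1.89 ± 0.06 (adjusted p = 1.2e-16). By size of the log2 difference they ranked 16, 18 and 32 of 13760 IDs. Without the 6 libraries that stand apart the log2 differences were 2.46, 2.34 and 1.88, and all 3 remained called.

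At 24 h the genes parted. Against uninduced cells of that time, ENSRNOG00000001859 was 1.90-fold higher with KIRA9 (106.9 ± 3.8 against 56.4 ± 3.2 CPM; log2 difference 0.92 ± 0.06, adjusted p = 3.7e-11). The background of IDs called higher in this contrast was 12.6%. ENSRNOG00000015157 was at 3.90 ± 0.70 CPM with KIRA9 and 3.55 ± 0.31 CPM in uninduced cells, a ratio of 1.10 with a 95% interval from 0.871 to 1.40 (adjusted p = 0.60). ENSRNOG00000020864 was at 3.53 ± 0.26 and 3.58 ± 0.33 CPM, a ratio of 0.984 with a 95% interval from 0.795 to 1.22 (adjusted p = 0.94). These intervals leave out the 5.54-fold and 4.87-fold ratios that the same contrast gave at 4 h.

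The change of the KIRA9 effect with time was tested directly. This test was planned only once the counts were known, and it reuses the KIRA9 libraries at 4 h. Because the 3 genes were grouped beforehand as raised early by the compounds, a smaller effect at 24 h is partly built in. The p-values are therefore not independent support for it. The log2 difference from uninduced cells was smaller at 24 h than at 4 h in all 3 genes. The 24 h value minus the 4 h value was -2.33 ± 0.24 (SE) for ENSRNOG00000015157 (adjusted p = 2.2e-07), -2.31 ± 0.20 for ENSRNOG00000020864 (adjusted p = 2.5e-08) and -0.97 ± 0.08 for ENSRNOG00000001859 (adjusted p = 1.2e-08). These 3 calls stand beside 4.43% of the tested IDs called in that direction. Among the 12 IDs called and at least 2-fold higher with PAIR1 over induced cells at 4 h, 5 (41.7%) were. These 3 genes themselves make up most of that share. Without the libraries that stand apart the values were -2.27, -2.32 and -0.94. Among the 749 IDs called higher with KIRA9 at 4 h, 367 were also called higher at 24 h, which is 49.0% of those raised at 4 h and 21.2% of the 1735 raised at 24 h. Of the 58 that were at least 2-fold higher at 4 h, 20 were called higher at 24 h, and the effect was called smaller at 24 h in 28. ENSRNOG00000001859 belonged to both of these counts, and the other 2 genes to the second alone.

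**Figure D2:**
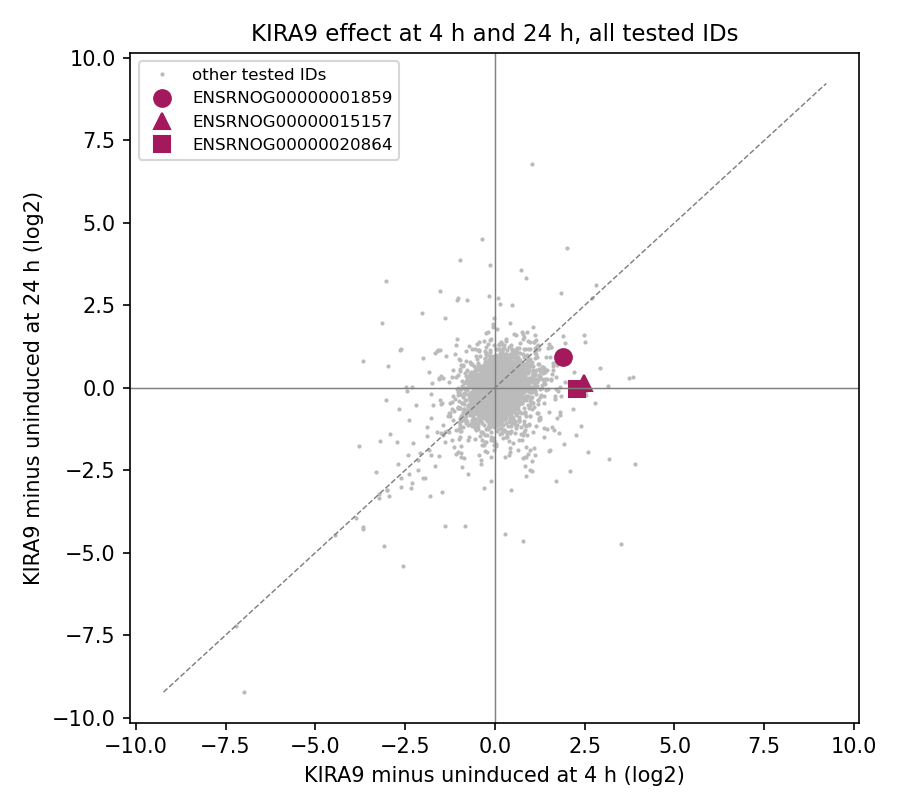
Log2 difference of KIRA9 from uninduced cells at 4 h (horizontal axis) and at 24 h (vertical axis) for the 13760 tested IDs; the dashed line marks equal differences at both times. The 3 genes lie far to the right, with ENSRNOG00000015157 (2.47 at 4 h, 0.14 at 24 h) and ENSRNOG00000020864 (2.28 and -0.02) near zero on the vertical axis and ENSRNOG00000001859 (1.89 and 0.92) above it.

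Levels also changed with time in uninduced cells. In uninduced cells, ENSRNOG00000001859 fell between 4 h and 24 h by a log2 difference of -0.76 ± 0.06 (95.2 ± 1.3 to 56.4 ± 3.2 CPM, adjusted p = 3.9e-09), where 13.5% of the IDs were called lower. ENSRNOG00000015157 rose in the same cells by 0.85 ± 0.17 (1.98 ± 0.27 to 3.55 ± 0.31 CPM, adjusted p = 0.00091), where 13.6% were called higher. For ENSRNOG00000020864 the difference was -0.38 ± 0.15 and did not pass (adjusted p = 0.059), although its uninduced libraries were all lower at 24 h, as in 18.3% of the tested IDs. It passed when uninduced 4 h replicate 1 was left out (-0.45, adjusted p = 0.048). In KIRA9 cells all 3 fell between 4 h and 24 h, with log2 differences of -1.72 ± 0.06 for ENSRNOG00000001859 (adjusted p = 5.6e-16), -1.48 ± 0.16 for ENSRNOG00000015157 (adjusted p = 2.7e-07) and -2.68 ± 0.14 for ENSRNOG00000020864 (adjusted p = 3.2e-12), against 13.9% of IDs called lower. For ENSRNOG00000020864 only 16 of the 13760 IDs had a more negative difference. A fall from the KIRA9 level at 4 h is partly built in, since the genes were grouped beforehand as raised early by the compounds. These p-values and this rank are therefore not independent support for a fall. In induced vehicle cells, whose 4 h libraries entered the choice and which are therefore not tested, the log2 difference between times was -2.68 for ENSRNOG00000001859, 0.04 for ENSRNOG00000015157 and -0.38 for ENSRNOG00000020864. In PAIR1 cells the 24 h level was lower than the 4 h level by 3.68-fold, 2.33-fold and 3.47-fold in the order of the IDs, given without a test for the same reason.

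Of the 3 genes, ENSRNOG00000001859 was the one called for induction of IRE1α at 24 h. The level went from 56.4 ± 3.2 to 14.1 ± 1.4 CPM, a 4.03-fold fall (log2 difference -2.01 ± 0.07, adjusted p = 2.3e-17), where 32% of the tested IDs were called lower. Only 221 of the 13760 IDs had a more negative difference. ENSRNOG00000015157 had a ratio of 0.947 (95% interval 0.746 to 1.20, adjusted p = 0.70) and ENSRNOG00000020864 a ratio of 1.00 (0.812 to 1.24, adjusted p = 0.99). Whether the induction effect differed between these genes was not tested. Without the 6 libraries that stand apart, the induced group at 24 h holds 1 library, assumed to vary like the other groups, and ENSRNOG00000001859 was still called lower (adjusted p = 1.1e-10).

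Over induced cells at 24 h, ENSRNOG00000001859 was 3.82-fold higher with PAIR1 (log2 difference 1.94 ± 0.07, adjusted p = 1.3e-16) and 7.65-fold higher with KIRA9 (2.94 ± 0.07, adjusted p = 2.2e-20). All 3 libraries of each compound lay above all 3 induced libraries, as did 32.5% of all IDs for PAIR1 and 34.3% for KIRA9. Higher calls made up 30% and 32.3% of the IDs in these contrasts, which share the induced libraries. By size, the gene ranked 50 and 27 of 13760. Set against uninduced cells, the PAIR1 level had a ratio of 0.949 (95% interval 0.870 to 1.03, adjusted p = 0.39). Without the libraries that stand apart, the log2 differences over induced cells were 1.95 and 2.94. All contrasts with the induced group at 24 h depend on its time label. With the conflicting time characteristic in place of the title, ENSRNOG00000001859 had log2 differences of 0.67 for induction, -0.75 for PAIR1 and 0.25 for KIRA9 over induced cells, so that the first 2 changed direction. These values use the libraries titled induced 4 h, which entered the choice of the genes.

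Neither compound moved the other genes from the induced level at 24 h by the test. The ratio of PAIR1 to induced cells was 0.943 for ENSRNOG00000015157 (95% interval 0.738 to 1.20, adjusted p = 0.70) and 0.784 for ENSRNOG00000020864 (0.628 to 0.978, adjusted p = 0.069). The latter passed without PAIR1 24 h replicate 3 (log2 difference -0.47, adjusted p = 0.039) and without induced 24 h replicate 2 (-0.47, adjusted p = 0.026), in each case as a lower level with PAIR1, opposite to its direction at 4 h. It did not pass without the 6 libraries that stand apart (-0.47, adjusted p = 0.089). For KIRA9 the ratios were 1.17 (0.917 to 1.48, adjusted p = 0.26) and 0.980 (0.790 to 1.22, adjusted p = 0.88). Against uninduced cells PAIR1 gave 0.893 (0.700 to 1.14, adjusted p = 0.52) and 0.787 (0.632 to 0.981, adjusted p = 0.11), so that 0 of the 3 genes were called in this contrast, where 28% of IDs were. The counts behind these values, from 27 to 94 per library at 24 h, limit what could be detected.

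The compounds were compared with each other at 24 h as 1 pair, at doses that the labels do not give. The level of ENSRNOG00000001859 was 53.4 ± 3.9 CPM with PAIR1 and 106.9 ± 3.8 CPM with KIRA9 (ratio 0.500, 95% interval 0.459 to 0.544, adjusted p = 1.4e-11), where 10.3% of the IDs were called lower. KIRA9 thus stood 2.00-fold above PAIR1, beside 1.80-fold at 4 h. The other genes were not called: ENSRNOG00000015157 had a ratio of 0.809 (95% interval 0.635 to 1.03, adjusted p = 0.25) and ENSRNOG00000020864 of 0.800 (0.640 to 0.999, adjusted p = 0.22). For ENSRNOG00000020864 the 3 PAIR1 libraries lay below the 3 KIRA9 libraries, which was so for 18% of all tested IDs. The direction, KIRA9 above PAIR1 in the group means, was the one seen at 4 h in each gene. The intervals reach a KIRA9 level 1.58-fold that of PAIR1 for ENSRNOG00000015157 and 1.56-fold for ENSRNOG00000020864.

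**Figure D3:**
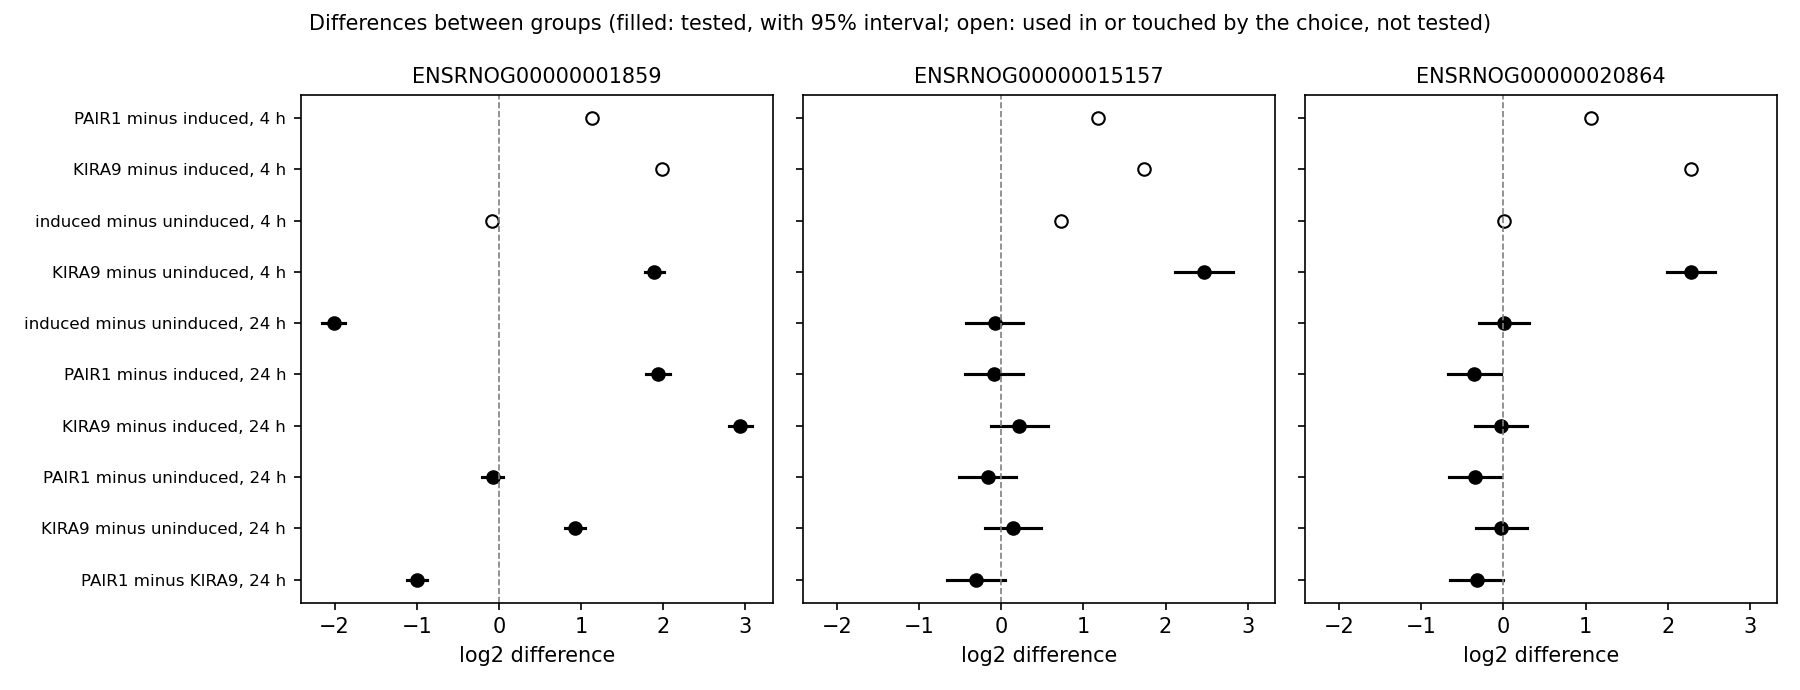
Log2 differences between groups for each gene; filled points were tested and carry a 95% interval, open points use libraries behind the choice of the genes and were not tested. ENSRNOG00000001859 lies away from zero in every tested contrast shown except PAIR1 minus uninduced at 24 h (-0.08), whereas the other 2 genes do so with KIRA9 at 4 h, and at 24 h have values between -0.35 and 0.22. At 24 h the unadjusted intervals of ENSRNOG00000020864 exclude zero for PAIR1 against induced cells, uninduced cells and KIRA9, none of which passed the adjusted p, and those of ENSRNOG00000015157 include it.

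Ordered by group mean, each gene was highest with KIRA9 at 4 h and next highest with PAIR1 at 4 h. ENSRNOG00000001859 spanned 25.2-fold between its lowest group (induced 24 h) and its highest, ENSRNOG00000015157 5.53-fold from uninduced 4 h, and ENSRNOG00000020864 8.13-fold from PAIR1 24 h. In ENSRNOG00000001859, neighbouring groups overlapped at 2 places: PAIR1 with uninduced cells at 24 h, and induced with uninduced cells at 4 h. In ENSRNOG00000015157 the 4 groups at 24 h and the induced group at 4 h formed a run of overlapping neighbours between 3.18 and 3.90 CPM. In ENSRNOG00000020864 the run was KIRA9, uninduced and induced at 24 h, between 3.53 and 3.59 CPM. Its 2 vehicle groups at 4 h overlapped as well. The replicate spread of ENSRNOG00000015157 with PAIR1 at 4 h, a coefficient of variation of 17.6%, was larger than the 9.13% that counting alone would give. Other groups went either way. In induced cells at 4 h it was 5.13% against 13.3% from counting for ENSRNOG00000015157, and 7.25% against 2.53% for ENSRNOG00000001859.

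The genes whose pattern was most like each of the 3 were taken by Pearson's r over the 8 group means of log2 CPM, among 10710 IDs or 1 fewer with a mean of at least 5 CPM, as a description. For ENSRNOG00000001859 these were ENSRNOG00000047524, ENSRNOG00000002028 and ENSRNOG00000032441, each with r = 0.99, and 47 IDs had r above 0.95. For ENSRNOG00000020864 they were ENSRNOG00000013176 (r = 0.98), ENSRNOG00000028208 (0.98) and ENSRNOG00000014161 (0.98), and 9 IDs were above 0.95. ENSRNOG00000015157 had 1 ID above 0.95, ENSRNOG00000009323 (r = 0.96), followed by ENSRNOG00000013391 (0.91) and ENSRNOG00000018042 (0.91). The measure compares shape and not size. Between their lowest and highest groups the 9 IDs spanned from 1.15-fold (ENSRNOG00000018042) to 5.02-fold (ENSRNOG00000002028), and ENSRNOG00000014161 spanned 4.16-fold. In ENSRNOG00000018042 the lowest and highest groups, uninduced and KIRA9 at 4 h, were at 50.0 ± 3.8 and 57.3 ± 3.1 CPM. Replicate spread is not small beside that gap, so r may partly follow it. Among the 3 genes themselves, ENSRNOG00000015157 and ENSRNOG00000020864 had r = 0.86, ENSRNOG00000001859 had r = 0.78 with ENSRNOG00000020864 and 0.65 with ENSRNOG00000015157. For ENSRNOG00000001859 these r values ranked 2000 and 3422 among 13759 other tested IDs. Ranked from the side of ENSRNOG00000015157, ENSRNOG00000020864 came 38 and ENSRNOG00000001859 came 314. From the side of ENSRNOG00000020864, ENSRNOG00000015157 came 91 and ENSRNOG00000001859 came 223. All 3 were chosen for a high PAIR1 level at 4 h, so r among them is not independent of the choice. All of these points share the same libraries and scaling.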

How the data were processed

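Poly(A) RNA of 24 INS1 samples was sequenced after NEBNext Ultra II library preparation, per the labels' protocols. Alignment and counting tools are named as HISAT2 and HTSeq, without versions, per the submitters' processing notes. Genome build, annotation and strand setting are not given in the sources used here. Reads from paralogs or from genes that overlap on either strand could therefore have been split or merged. The deposited values are raw read counts per Ensembl ID, made by the authors without normalization.

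Groups were taken from the titles. The tests used edgeR 4.0.16 (R 4.3.3): filterByExpr at a minimum count of 10, TMM scaling, quasi-likelihood fit of the 8 group means over 24 libraries, and Benjamini-Hochberg adjustment over 13760 IDs. Every adjusted p comes from it unless another tool is named. Intervals are 95% intervals of that fit, not adjusted for multiple tests. The genes, lists and tests were chosen with earlier results of these data known. The gene and marker lists planned for description need gene symbols and were not used. Contrasts that share no library with PAIR1 or induced cells at 4 h were tested. Genes like a member were named by the 3 highest r. The procedure was tested on simulated data. Replicates of a group differed by more than sampling noise (chi-square per degree of freedom 3.63 to 19.6).

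Replicate numbers were checked for pairing. Deviations of same-numbered libraries from their group means correlated above 0.1 for all 3 pairs in 1 of 9 contrasts, uninduced cells between times (0.29 to 0.56), where the block changed no call, and over all 27 pairs r ran from -0.31 to 0.56.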

Additional observations from a re-analysis of the deposited data

Results flagged for a closer look

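The effect of KIRA9 relative to uninduced cells differed between 24 h and 4 h in each of the 3 genes by a test of the difference itself (edgeR's quasi-likelihood test, adjusted over 13760 IDs). It was smaller at 24 h: the 24 h minus the 4 h value was -0.97 on the log2 scale for ENSRNOG00000001859, -2.33 for ENSRNOG00000015157 and -2.31 for ENSRNOG00000020864. Induced cells given KIRA9 were compared with uninduced cells at both times, so these values hold doxycycline, the transgene and the compound together. Their separate parts were not tested. Because the 3 genes were grouped beforehand as raised early by the compounds, a smaller effect at 24 h is partly built in.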

How the results depend on the processing

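Over the 30 differences tested here (3 genes in 10 contrasts), 387 values under alternatives were computed: DESeq2, its size factors inside edgeR, no filter on low counts, only the compared groups, a replicate block, the 6 libraries that stand apart left out, the other time label, and each library left out in turn. In 380 the side of the threshold was kept and no called value changed direction. Among these, 14 values that were not called changed sign, in 6 differences of ENSRNOG00000015157 and ENSRNOG00000020864 at 24 h, and lay between -0.14 and 0.15. Called values changed sign in 2 cases, both under the other time label, with log2 differences of 0.67 for induction and -0.75 for PAIR1 over induced cells at 24 h in ENSRNOG00000001859. That label also turned into calls the values of ENSRNOG00000020864 for PAIR1 (-0.73) and KIRA9 (-0.40) over induced cells. The label exchanges the libraries compared, and with it the KIRA9 value of ENSRNOG00000001859 over induced cells, 2.94, became 0.25 and was still called. The libraries brought in are those titled induced 4 h, whose values entered the choice of the genes. Calls under this label are therefore not independent of that choice. With single libraries left out, ENSRNOG00000020864 ran from -0.47 to -0.20 for PAIR1 over induced cells at 24 h and from -0.45 to -0.30 for uninduced cells between times, and 3 of these values became calls. The replicate block changed no call: for KIRA9 over uninduced cells at 4 h it gave 1.89, 2.47 and 2.28 in the order of the IDs. Of the 3 IDs most like each gene, 1 remained by r over 24 libraries, and by Spearman's rho over group means 1 remained for ENSRNOG00000001859 and ENSRNOG00000015157 and 0 for ENSRNOG00000020864. Low counts limit what can be seen in the latter 2 genes. At 24 h they had 27 to 94 counts per library.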

Other observations

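ENSRNOG00000015157 and ENSRNOG00000020864 had the same count in 2 of the 24 libraries, 60 in uninduced 24 h replicate 2 and 55 in replicate 3, which is why their printed levels coincide there. Their counts differed in the other 22 libraries.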
